A study of Drosophila melanogaster with 3 samples.

Results

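The 3 genes described here, psq, Trl and lolal, encode BTB-domain proteins of the GAGA-associated group of Drosophila melanogaster. They were taken by name from the dm6 gene models, which hold 13968 protein-coding genes, and the binding sites of Pipsqueak itself at these genes are reported. The animals were whole wandering third-instar larvae of the transgenic line psq-GFP, males and females pooled and of unknown age, which makes Pipsqueak with eGFP at its C terminus, and an anti-GFP antibody was used for the precipitation. All 3 samples were biological replicates of this 1 group, so no conditions were compared and no test between groups was possible. Values are averages over all tissues of the larva. The number of psq copies in the line is not given in the labels, and its part in the signal at psq was not tested.

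Pipsqueak binds GAGA sequences through a repeated DNA-binding domain of its own kind. Trl encodes the GAGA factor, a zinc finger protein that binds the same sequences and opens chromatin at promoters and Polycomb response elements. The lolal gene, also called batman, encodes a short protein that consists almost only of a BTB domain and has no DNA-binding domain of its own. BTB domains let such proteins pair with each other, and all 3 genes are known for roles in both Polycomb repression and Trithorax activation.

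A binding site was counted for a gene when the summit of an entry of the authors' reproducible (optimal) list lay within the gene span or 1 kb of it. In all, 39 of the 9459 optimal summits (0.412%) lay at these genes, 32 at psq, 4 at Trl and 3 at lolal. All 3 genes were therefore bound, as were 37.4% of protein-coding genes. By number of summits, 0.0358% of protein-coding genes had at least as many as psq, 4.73% at least as many as Trl, and 7.72% at least as many as lolal. The strength of a summit is given by the authors' signal value, which has no stated scale and can be compared only within its own list. The strongest summit had a signal of 14175 at psq, 3232 at Trl and 429 at lolal, against a median of 365 over the optimal list.

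**Figure D1:**
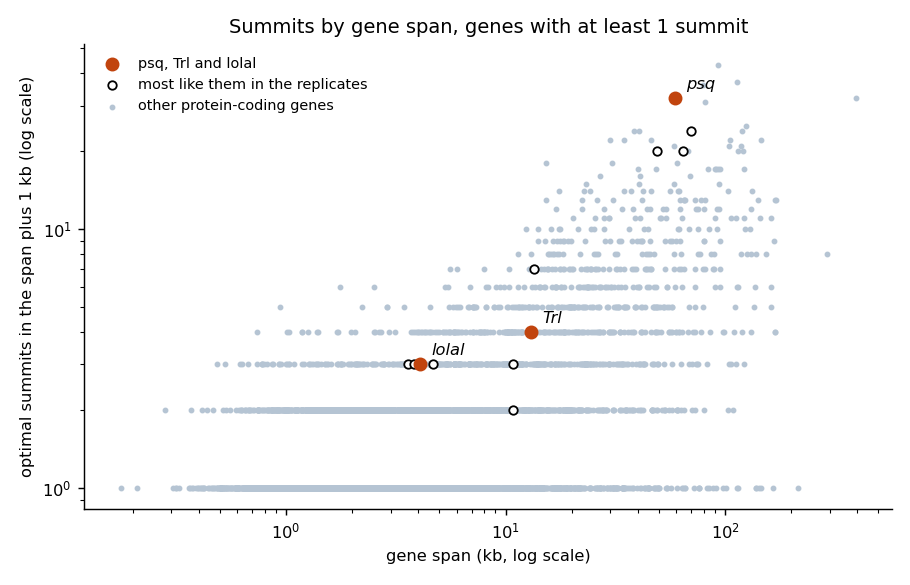
Number of optimal summits in the gene span plus 1 kb (y axis, log scale) against the gene span in kb (x axis, log scale) for protein-coding genes with at least 1 summit. The filled points are psq with 32, Trl with 4 and lolal with 3 summits, and the open points are the 9 genes most like them in the replicate lists.

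The replicates placed similar numbers of summits at each gene. Each replicate list was cut to its 9459 strongest entries (top list), as many as the optimal list holds. The psq gene had 31, 34 and 32 summits in the top lists of replicates 1, 2 and 3, a mean of 32.3 ± 1.53 (SD, n = 3). Trl had 4, 5 and 5 summits (4.67 ± 0.577, SD, n = 3), and lolal had 3 in each of the 3 top lists. In each replicate psq had the most summits and lolal the fewest, with Trl and lolal only 1 apart in replicate 1. Of the 39 member summits, 38 (97.4%) lay in entries that a top list entry of every replicate overlapped by at least 1 bp, against 80.7% of all optimal summits. This depended on how overlap was defined, with a reciprocal overlap of at least 50% in 19 of 39 (48.7%), against 56.0% of all optimal summits, and a top list summit at most 100 bp away in every replicate for 26 of 39 (66.7%), against 62.7%. The member summits were thus above the list by the first measure and below it or close to it by the others. Under the 1 bp overlap, the exception was the psq summit at 10600746, with a signal of 299, which no entry of the replicate 1 list overlapped. The optimal list rests on these replicates, and the overlap is partly a result of that. Overlap is also a property of the entry, so that summits sharing an entry are not separate observations. The 32 psq summits lay in 19 distinct entries, and 5 of them shared 1 entry of 3348 bp.

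The psq gene (FBgn0263102) covers 59.4 kb of 2R, 10557888 to 10617280, is transcribed from the plus strand and has 15 annotated transcripts from 5 start sites. Pipsqueak summits lay within 50 bp of 4 of these 5 start sites. The first start site, which begins 6 transcripts, had a summit 36 bp upstream of it with a signal of 2305. The start site of psq-RE, 11054 bp further in, had a summit 27 bp downstream of it with a signal of 3406. The start site of psq-RF and psq-RG had a summit 44 bp upstream of it with a signal of 1090. The start site at 25798 bp, shared by psq-RD, psq-RH, psq-RJ, psq-RP and psq-RQ, had a summit 2 bp upstream of it with a signal of 1136. Only the start site of psq-RK lacked a summit within 500 bp, the nearest being 776 bp upstream. A summit lay within 500 bp of 26.2% and within 50 bp of 4.16% of the 19252 annotated start sites of protein-coding genes. Counting psq, Trl and lolal together, 10 of 14 start sites had a summit within 500 bp.

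Most psq summits were nevertheless away from start sites. Of the 32, 6 (18.8%) lay within 500 bp of a psq start site, against 45.1% of summits at protein-coding genes measured against the start sites of their own gene. The 45.1% is taken over 11360 pairs of summit and gene, so that a summit at several genes counts for each. It covers genes of all lengths and is not matched to the length of psq. Introns held 28 of the 32 psq summits, 5′ untranslated sequence 3, the sequence just upstream of the first start site 1, and coding exons 0. The strongest summit, 1076 bp into the gene at 10558964, was intronic. It had signals of 4069, 5172 and 5081 in replicates 1, 2 and 3 and ranked 1 in each list, and the replicate summits lay at most 1 bp from the optimal summit. Expressed over the median of each replicate's own top list, this is 43.5, 31.8 and 42.4, a mean of 39.3 ± 6.46 (SD, n = 3). The next strongest psq summit was 6709 bp into the gene, with a signal of 5608 and rank 15 in the optimal list. It had signals of 941 in replicate 1 and 2606 in replicate 2, and the summit beside it, at 6913 bp, had 525 and 2197. Replicate 3 placed a summit between them, with a signal of 2046 and rank 14, which lay 104 bp from the first and 100 bp from the second, so that it cannot be assigned to either, although the limit of 100 bp used to match replicates gives it to the second. A group of intronic summits further in, from 39214 to 47355 bp, was led by summits with signals of 3662 and 3501, which ranked 60 and 63.

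The summits left long stretches of psq empty. The widest gap ran for 13219 bp, between the summits at 25995 and 39214 bp. A Tirant retrotransposon of 8527 bp is annotated in this gap on the reference genome (2R, 10585613 to 10594139), and neither the optimal and pooled lists nor the 3 replicate lists, background included, placed a summit in it. Whether the larvae carried the element, or reads could be placed in it, was not tested. The last 12037 bp of the gene also held no optimal summit, and the coding sequence extends to 57331 bp. The pooled list, which includes background, had 27 further entries at psq that were weaker than those of the optimal list, of which 5 reached a −log10 q-value of 2. Outside the gene, the 50 kb upstream held 18 optimal summits, with a highest signal of 1671, and the 50 kb downstream held 2, with a highest signal of 361. CG11883, the next gene downstream, had 1 optimal summit, with a signal of 269.

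**Figure D2:**
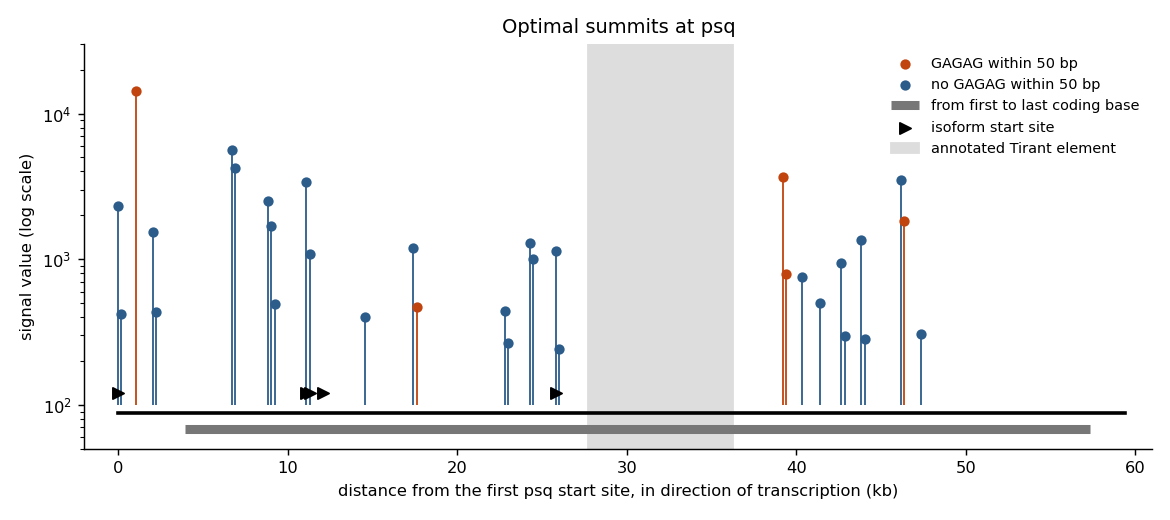
Optimal summits at psq. The x axis is the distance in kb from the first start site, in the direction of transcription, and the y axis is the signal value on a log scale, with each stem 1 summit coloured by whether GAGAG lies within 50 bp. Triangles are isoform start sites, the black line is the gene, the grey bar runs from the first to the last coding base, and the shaded block is the annotated Tirant element, where no summit lies.

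Many psq summits came in pairs. The 32 summits formed 17 separate regions, and 11 of these held several summits. The region at the first start site, 3348 bp wide, held 5 summits, and its strongest signal was 6.15 times the second. At the pair 6709 and 6913 bp into the gene the ratio was 1.33, with signals of 5608 and 4232. Across the 3 genes there were 17 gaps between neighbouring summits of a region, with a median of 206 bp and quartiles of 203 and 209 bp. The 1869 such gaps of the whole optimal list had a median of 204 bp and quartiles of 201 and 218 bp. The shortest gap was 199 bp both at the 3 genes and in the whole list, so the spacing is no trait of these genes. There were 17 such gaps for the 39 member summits, against 1869 for the 9459 optimal summits. The share of regions with several summits over the whole list is not given here. Counts of summits are therefore higher than counts of regions, which were 17 at psq, 3 at Trl and 2 at lolal.

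Trl (FBgn0013263) lies on the minus strand of 3L from 14747929 to 14761049 and has 10 transcripts from 4 start sites. Its binding was concentrated in 1 site, which is intronic in Trl-RF only. All other annotated Trl transcripts start downstream of it. The summit at 14759492, in an intron and 1530 bp upstream of the start site shared by 7 transcripts, had a signal of 3232 and ranked 85 in the optimal list. It had signals of 936, 1311 and 1068 in replicates 1, 2 and 3, where it ranked 62, 101 and 106. Relative to the median of each replicate's top list this was a mean of 9.00 ± 0.975 (SD, n = 3), and in each replicate it was above every other Trl summit, which reached at most 2.42. A second summit of the same region, at 14759710, had a signal of 416 and was found within 100 bp only in replicates 2 and 3. The summit at 14757231, 105 bp downstream of the Trl-RJ start site in 5′ untranslated sequence, had a signal of 682, and the intronic summit at 14756194 had 624. Both also lie in CG42507, which is annotated on the same strand from 14747929 to 14757962, so that they cannot be told apart as sites of Trl or of CG42507. Tsen34 overlaps the other end of Trl, at the Trl-RF start site, and held no summit in its span. With 1 kb on each side Tsen34 had 2, the stronger being the Trl summit at 14759710, which is thus counted for both genes. Of the next genes, ome had 7 summits in its span, the strongest with a signal of 1271 when 1 kb on each side is added, and Mgat4a had 1, with a signal of 360. Of the 4 start sites, only that of Trl-RJ had a summit within 500 bp, whereas the start sites of the 7 main transcripts, of Trl-RA and of Trl-RF were 731, 548 and 1339 bp from the nearest.

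The sequences at the strongest Trl site and at the longest GA repeat of Trl are shown because none of the 4 optimal Trl summits lay at this repeat. An optimal entry does reach into it: that of the summit at 14757231 ends at 14757392, and the repeat runs from 14757379 to 14757398. With so few summits their distance from the repeat is no more than a description, since GAGAG lay near only a minority of summits in the whole list too. Both are from the plus strand of the RefSeq release 6 genome, chr3L:14759432-14759552 and chr3L:14757349-14757428, and Trl is transcribed from the other strand. In the first, capitals mark the 11 bases centred on the summit. In the second, capitals mark an uninterrupted run of 20 bases, which reads as GA repeats on the strand of Trl and ends 43 bp upstream of the Trl-RJ start site. Neither stretch touches an annotated Trl exon.
Strongest summit: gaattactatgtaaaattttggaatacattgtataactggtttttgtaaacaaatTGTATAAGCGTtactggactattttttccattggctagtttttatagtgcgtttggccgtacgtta
Longest GA run: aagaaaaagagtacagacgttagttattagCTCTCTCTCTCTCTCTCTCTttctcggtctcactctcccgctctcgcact
The 101 bp at the strongest summit had a GC content of 29.7% and no GAGAG on either strand, and the nearest GAGAG was 163 bp away. The stretch of 80 bp with the GA run held 10 overlapping matches of GAGAG. The run lay 157 bp from the nearest optimal summit and 55 bp from a weaker summit of the pooled list at 14757443, which had a signal of 116, ranked 14949 and had a −log10 q-value of 1.82.

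Across the whole Trl window of the gene plus 1 kb, GAGAG was frequent, and no match lay near the 4 optimal summits. There were 50 matches of GAGAG on either strand, overlapping ones included, or 3.31 per kb, against 1.57 per kb over the 6 chromosome arms searched. Introns held 45 of them, coding exons 4 and untranslated sequence 1. None lay within 100 bp of a Trl summit, although such sequence makes up 5.32% of the window. Of the 5 Trl entries of the pooled list that were weaker than the optimal list, 3 had GAGAG within 50 bp. Of these 3, the entries with summits at 14755369 and 14756403 reached a −log10 q-value of 2, at 2.99 and 2.05, so the absence of GAGAG holds for the optimal summits of Trl only. At psq, 30 of 129 matches (23.3%) lay within 100 bp of a summit, sequence that makes up 10.5% of the window. At lolal it was 2 of 7 matches (28.6%), in 9.89% of the window. As controls with the same bases in another order, GGAAG lay within 100 bp of a summit for 11 of 103 matches at psq, 2 of 13 at Trl and 1 of 7 at lolal. For AGGGA it was 10 of 71 at psq, 1 of 18 at Trl and 0 of 9 at lolal. A single GA run gives several overlapping matches of GAGAG, which has no counterpart in these controls, so the shares of matches are not strictly alike.

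In the windows of 50 bp to each side, GAGAG was about as frequent at these summits as in the whole list. It was present within 50 bp of 6 of the 39 summits (15.4%), 5 at psq, 0 at Trl and 1 at lolal, against 17.0% of all optimal summits and 12.7% of windows of the same length at start sites of protein-coding genes. In windows of 100 bp to each side GAGAG was at 14 of the 39 (35.9%), 13 at psq, 0 at Trl and 1 at lolal, against 31.6% of all optimal summits. Within 50 bp, the longer GAGAGAG was at 2 member summits, both at psq, against 4.31% of all optimal summits. GGAAG was at 6 of the 39 and AGGGA at 3, against 12.4% and 11.4% of all optimal summits. The strongest psq summit was among those with the motif. Its window held 3 overlapping matches, the nearest centred 8 bp from the summit, an alternating GA run of 10 bp and a GC content of 55.4%, against a median GC content of 37.6% over all optimal summits. The intronic psq summit with signal 3662 had a match centred 3 bp away, whereas the pair with signals of 5608 and 4232 had none within 50 bp. None of the summits on the 4 occupied psq start sites had the motif in this window, nor did any of the 5 psq start sites within 50 bp.

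The lolal gene (FBgn0022238) lies on the minus strand of 2R from 18154095 to 18158192 and has 8 transcripts from 5 start sites. Its 3 summits all lay within 67 bp of a start site, in 5′ untranslated sequence of at least 1 transcript and upstream of the coding sequence. The summit 59 bp downstream of the start site of lolal-RD and lolal-RG was the strongest, with a signal of 429 in the optimal list and of 125, 173 and 136 in replicates 1, 2 and 3. Its ranks were 3280, 4373 and 4053, and it was 1.18 ± 0.141 times the median of the replicate's own top list (SD, n = 3). The others, 23 bp upstream of the lolal-RH start site and 67 bp upstream of that of lolal-RA and lolal-RC, had signals of 364 and 320. They belong to 1 region, and replicate 1 had a summit within 100 bp of the second only, and replicate 3 of the first only. All 5 lolal start sites had a summit within 500 bp. The start site of the divergent neighbour CG10914 lay 172 bp from the nearest of these summits, so that the 2 upstream summits of lolal are counted for both genes and the strongest, 1424 bp from that start site, for lolal only. The neighbour adp, on the other side of lolal, had 1 summit of its own, with a signal of 932. GAGAG was within 50 bp of the strongest lolal summit and of neither of the others.

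**Figure D3:**
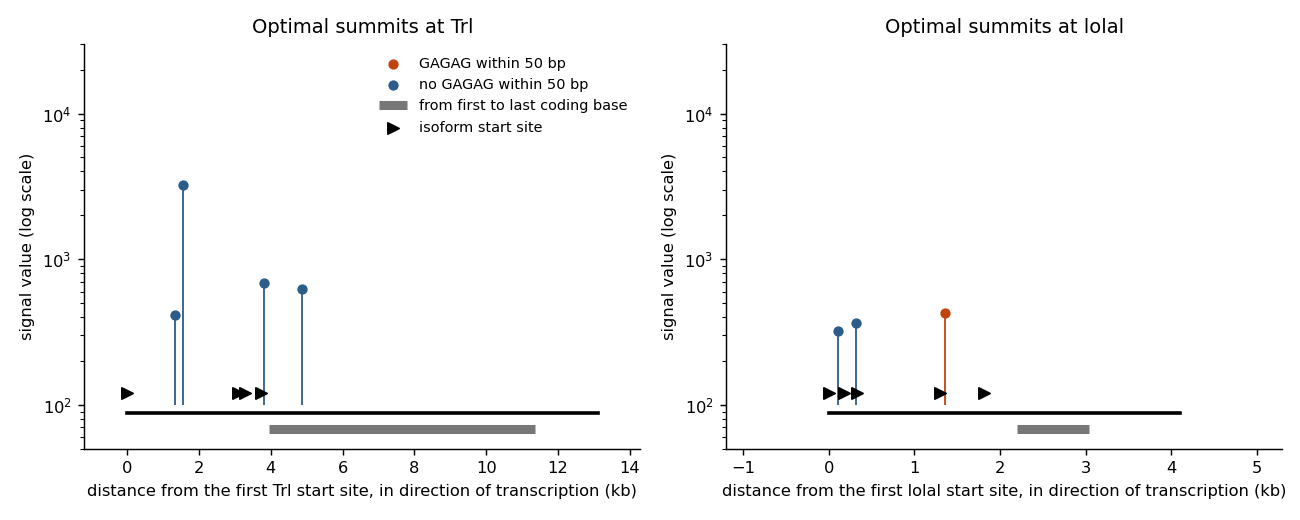
Optimal summits at Trl (left) and lolal (right), drawn as for psq, with the distance in kb from the first start site on the x axis and the signal value on a log scale on the y axis. The Trl summit at 3232 stands above the other 3, which lie between 416 and 682, and the 3 lolal summits lie between 320 and 429 at start sites.

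Set beside genes of similar length, psq stood at the top, Trl in the upper part and lolal near the top by number but not by strength. Among the 188 protein-coding genes 20% shorter to 25% longer than psq, itself included, whose median was 2 summits, psq ranked 1 both by number of summits and by strongest signal. Among the 610 such genes for Trl, whose median was 1 summit, Trl ranked 55 by number, shared with 41 others, and 9 by strongest signal. Among the 1549 such genes for lolal, of which 45.9% were bound, lolal ranked 21 by number, shared with 60 others, and 364 by strongest signal.

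The summits were compared between replicates by matching each to a summit within 100 bp in the whole replicate list, background included. For 30 of the 39 all 3 replicates had such a summit, for 8 there were 2 replicates and for 1 there was 1. Some matches were weak, such as that of the psq summit at 10560129 in replicate 1, with rank 15499 and a −log10 q-value of 0.703. For whole lists no share over all optimal summits is given here. With the top lists only, all 3 replicates matched 26 of 39 (66.7%), against 62.7% of all optimal summits. Replicate 1 lacked a match for 6 summits, replicate 2 for 1 and replicate 3 for 3. Relative to the median of its own top list, replicate 1 gave the lowest value at 17 of the 26 psq summits with values in all 3 replicates. It did so at none of the 3 Trl summits with such values. No share over all optimal summits is given here for this, so the counts cannot be read as a trait of either gene. Summits that share an entry are also not separate observations. The summit at the psq-RF and psq-RG start site was low in replicate 1, with 0.476, 4.12 and 3.50 times the median in replicates 1, 2 and 3 (2.70 ± 1.95, SD, n = 3). The start site at 25798 bp was more even, at 2.32, 3.19 and 3.40 times the median (2.97 ± 0.572, SD, n = 3). The replicate 1 list held 9925 entries that reached a −log10 q-value of 2, fewer than the 16596 of replicate 2 and the 14879 of replicate 3. Its part in these differences was not tested.

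**Figure D4:**
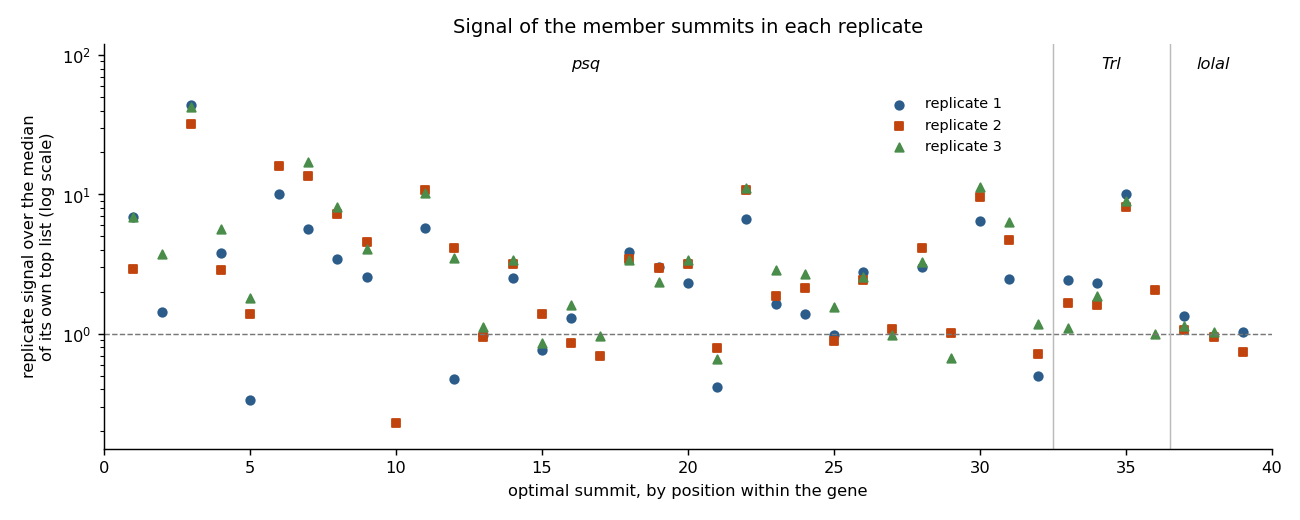
Signal of each of the 39 member summits in replicates 1, 2 and 3, divided by the median signal of that replicate's top list (y axis, log scale, dashed line at 1), in order of genome position within each gene (x axis). A replicate with no summit within 100 bp in its whole list, background included, has no point. The strongest psq summit lies between 31.8 and 43.5 times the median in all 3 replicates.

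Genes of the same field were bound unevenly. Of 9 genes for other proteins at GAGA sequences or Polycomb response elements, 6 (66.7%) were bound by the optimal list, against 37.4% of all protein-coding genes. In the top list of every replicate 5 of the 9 had a summit, and no share over all genes is given here for that measure. The share bound by the optimal list depends on length. It was 66.5% among genes as long as psq, 60.3% among those as long as Trl and 45.9% among those as long as lolal. The transcription factor gene grh, which encodes Grainyhead, had 9 summits, the strongest with a signal of 2277, and 6, 13 and 9 in the top lists of replicates 1, 2 and 3. Adf1 had 3 summits, with a highest signal of 2954, and Dsp1, a high-mobility-group gene, had 3, with a highest signal of 1105. The combgap gene cg had 2, with a highest signal of 468. The Zeste gene z and the Sp1-family gene Spps had 1 each, with signals of 239 and 213, and the Spps summit count was 0, 0 and 1 in the top lists of replicates 1, 2 and 3. Clamp, which encodes a zinc finger protein that binds GA repeats, and pho and phol, which encode proteins that bind Polycomb response elements, had no optimal summit, although phol had 2, 0 and 1 in the top lists of replicates 1, 2 and 3.

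Of 6 genes for subunits of NURF and FACT, chromatin complexes that work with the GAGA factor, 2 (33.3%) were bound by the optimal list, against 37.4% of all protein-coding genes. In the top list of every replicate 1 was bound, a measure for which no share over all genes is given here. The 2 were E(bx), the large NURF subunit, with 1 summit at a signal of 215, and dre4, the Spt16 subunit of FACT, with 1 at 300. Iswi, Nurf-38, Caf1-55 and Ssrp had none in the optimal list, but the replicates did not separate E(bx) from Iswi, which both had 1, 0 and 1 summits in the top lists of replicates 1, 2 and 3. Of 7 matched genes for other proteins with a Pipsqueak domain, 6 (85.7%) were bound by the optimal list and 5 in the top list of every replicate, and danr was not bound in either. By the optimal list the share was 37.4% over all protein-coding genes but 66.5% among genes as long as psq. None is given here for the top lists. Several of the 7 are long, with spans of 64.7 kb for bab1, 36.8 kb for bab2 and 65.4 kb for Eip93F. The limb and abdomen patterning genes bab1 and bab2 had 7 and 2 summits, with highest signals of 776 and 729. BtbVII had 3 summits with a highest signal of 461, dan had 2 with 381, rib had 1 with 348, and the ecdysone response gene Eip93F had 1 with 196, although its span of 65.4 kb exceeds that of psq. The strongest signal at any of the 14 bound genes of the 3 lists, 2954 at Adf1, was below the strongest Trl signal of 3232.

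**Figure D5:**
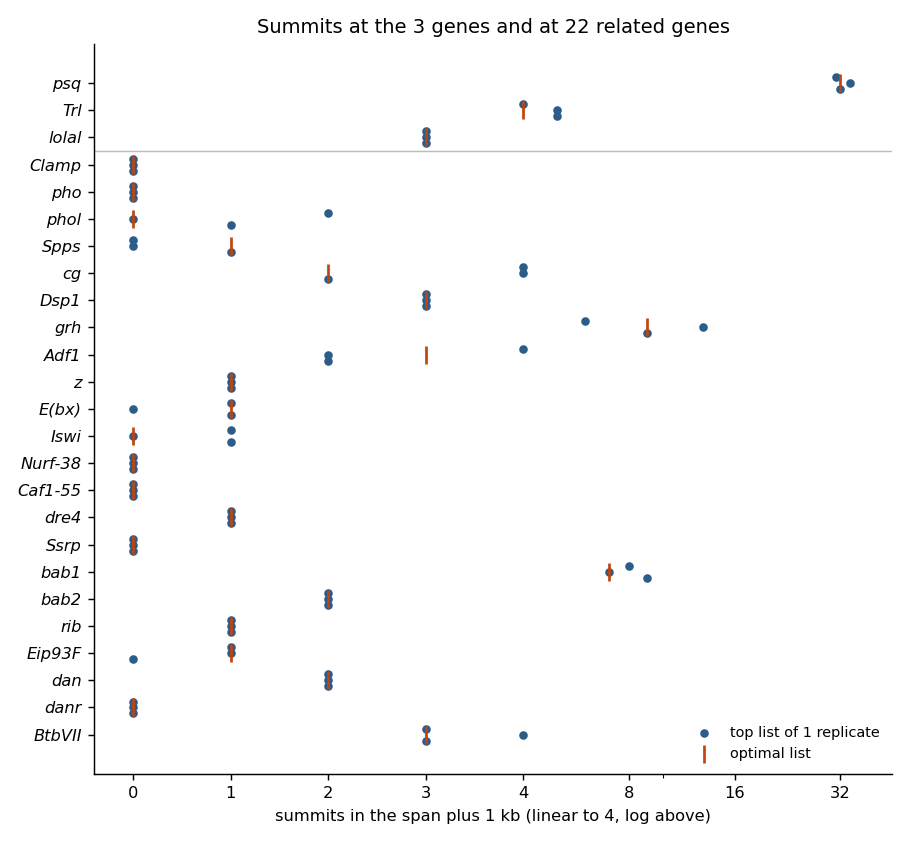
Summits in the span plus 1 kb (x axis, linear to 4 and log above) at psq, Trl and lolal, at the top, and at 22 genes of the 3 related lists. Blue points are the top lists of the 3 replicates and the red bar is the optimal list, which gives 32 at psq and at most 9, at grh, among the others.

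The genes most like each member were sought among genes 20% shorter to 25% longer, by the mean absolute difference over 6 log2 values, the summit number plus 1 and the rank of the strongest entry in each of the 3 top lists. For psq they were ush, the gene of the GATA cofactor U-shaped, InR, the insulin receptor gene, and Tlk, the Tousled-like kinase gene, with differences of 1.45, 1.48 and 2.77. These had 20, 20 and 24 optimal summits and strongest signals of 7114, 7563 and 4395, so even the nearest genes of similar length were well below psq. Among all protein-coding genes, whatever their length, psq ranked 4 by number of summits and 1 by strongest signal. For Trl they were Fkbp14, lig and the kinase gene Lk6, with differences of 0.46, 0.52 and 0.54 and strongest signals of 3203, 3199 and 3919. For lolal they were the mitotic kinase gene polo, Paip2 and the splicing factor gene SC35, with differences of 0.09, 0.13 and 0.14 and 3 optimal summits each.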

How the data were processed

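Peak lists on dm6 were analysed from ChIP-seq of 3 biological replicates of 1 group. The replicate and pooled lists include background and were input to the irreproducible discovery rate step, whose output is the optimal list, per the text files deposited by the authors. In the sources used here no aligner, peak caller or threshold is given. The signal value, the −log10 of the q-value and the summit offset are as deposited by the authors, and a signal value belongs to its own list. The lists hold no read counts, so depth is unknown and no counting interval could be given. The dm3 lists were not used here.

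Summits were placed on Ensembl release 115 gene models (FlyBase 6.54) and the RefSeq release 6 genome, all on the release 6 build (dm6). Positions are counted from 1. Annotated transposable elements were left out as genes. Of 23 related genes, 22 matched by symbol or synonym and pfk did not. Python 3.11.15, numpy 2.4.6 and pandas 2.3.3 were used, and the overlap and motif counts were checked on simulated data. The members, lists, motifs and the rule for named genes (the members, the listed genes, genes overlapping the windows, and 3 most similar genes each) were chosen with earlier results of these data known. No test was run, since there is 1 group, and shares over all genes or summits stand beside the members' counts as description.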

Additional observations from a re-analysis of the deposited data

How the results depend on the processing

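Of 42 alternative values for the numbers of summits, 31 stayed within 1.5 times the reported number. These 31 include all alternatives that left out 1 replicate, which could hardly differ from the reported numbers. The count of 31 is therefore no measure of how stable the summit numbers are. With 1 entry per set of overlapping entries, psq had 17 summits in place of 32, and of the 22 summits then left at the 3 genes, 22 were in all 3 top lists, 5 lay within 500 bp of a start site and 3 had GAGAG. Shares over the whole list are not given here for this setting, so these counts cannot be set against it. A flank of 5 kb gave 7 at Trl and 5 at lolal, and pooled entries with a −log10 q-value of at least 2 gave 7 at Trl. The stronger 50% of the optimal entries left 1 summit at lolal. With a reciprocal overlap of 50%, 19 member summits (48.7%) were in all 3 top lists, against 56.0% of all optimal summits. GAGAG was at 14 summits (35.9%) in windows reaching 100 bp to each side, against 31.6% of all optimal summits, and GAGAGAG was at 2 within 50 bp. The optimal list was not made again without a replicate. Of its member summits, 38 to 39 were in both remaining top lists when 1 replicate was left out, 31 to 32 at psq, 4 at Trl and 3 at lolal, which is the overlap split by gene and no check of the summit numbers themselves. No paired analysis was possible because there is 1 group. Without read counts, sampling error within a list is unknown.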
